A study of Mus musculus with 4 samples.

Results

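The cathepsins are a set of proteases named for digestion in acidic compartments, and 10 of their genes are described here as measured in unsorted thymus cells, which are mostly developing T cells. The genes are Ctse and Ctsd (aspartic proteases), Ctsa (a serine carboxypeptidase) and Ctsb, Ctsc, Ctsh, Ctsl, Ctss, Ctsw and Ctsz (cysteine proteases of the papain family). Their members were taken as all probe sets, the groups of short probes that each report 1 transcript region, whose platform annotation gives 1 of these symbols alone. This gave 22 probe sets out of 45037, of which 34945 carried 1 symbol and covered 18193 genes. The family was chosen with the result for Ctse, the largest rise on the arrays, and the bright signal of Ctsl already known, so the hypomorph and control values of the members are a description and carry no test.

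The arrays came from 2 Atg16l1 hypomorph mice, whose allele leaves the gene with reduced function, and 2 control mice, which the labels describe as wild type. All 4 animals were 7 weeks old, and the series text lists 1 male and 1 female per group without assigning them to arrays. The Atg16l1 protein brings the enzyme complex that couples LC3 to lipid to the growing autophagosome membrane. The sources used here give neither the construction of the allele nor the strain of either group. Each animal gave 1 Affymetrix array, and this number limits the precision of every value.

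Most cathepsins are made as inactive precursors, carried to endosomes and lysosomes largely by mannose 6-phosphate receptors, and activated there by acid pH and by cleavage. Lysosomes fuse with autophagosomes, and the cathepsins then digest the captured material. In the thymus, cathepsin L of cortical epithelial cells and cathepsin S of dendritic cells and B cells are known for removing the invariant chain from MHC class II molecules, and cathepsin C for activating the granzymes of cytotoxic cells. Cathepsin E differs from the others in being found mainly in endosomes, and is known from gastric epithelium, antigen-presenting cells and the red cell membrane.

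Many lysosomal genes carry near their start a palindromic site for the transcription factor TFEB, and the promoters of member genes were read for it, a search chosen after the values were seen. RefSeq promoters (GRCm38.p6) were at hand for 6 of the 10 member genes, with 7 starts among them, and the 250 bases before each start were searched. The other 4, Ctse, Ctsb, Ctsh and Ctsw, had no promoter at hand, so Ctse itself was not searched. The core CACGTG and the longer TCACGTGA that contains it both read the same on either strand. CACGTG lay in 3 of the 6 genes (Ctsa, Ctsd and Ctsl) and in 6.02% of all 32851 promoters. TCACGTGA lay in 2 of the 6 (Ctsa and Ctsd) and in 0.785% of all promoters. The 2 promoters with the longer site are shown, since they belong to the genes whose signals are set beside that of Ctse below. The sequence of Ctsd is on the minus strand (chr7:142387828-142388077), and that of Ctsa, at the second of its listed starts, is on the plus strand (chr2:164833523-164833772). Capitals mark TCACGTGA, which begins 99 bases before the start in Ctsd and 13 bases before it in Ctsa.
Ctsd: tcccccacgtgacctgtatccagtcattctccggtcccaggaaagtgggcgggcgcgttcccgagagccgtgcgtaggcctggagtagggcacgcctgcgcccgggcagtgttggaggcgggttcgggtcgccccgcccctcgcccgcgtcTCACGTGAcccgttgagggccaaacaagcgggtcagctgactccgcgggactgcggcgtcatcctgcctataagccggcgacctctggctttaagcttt
Ctsa: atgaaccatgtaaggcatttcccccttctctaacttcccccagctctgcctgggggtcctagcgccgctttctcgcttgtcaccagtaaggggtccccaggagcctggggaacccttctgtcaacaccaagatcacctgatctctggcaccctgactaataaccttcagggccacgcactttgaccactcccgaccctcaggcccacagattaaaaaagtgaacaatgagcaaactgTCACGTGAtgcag

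Deposited signals had array medians between 23.5 and 38.4, so the arrays were brought to a common median, and signals below are scaled by the same factors (0.762 and 1.05 for hypomorph replicates 1 and 2, 1.20 and 1.04 for control replicates 1 and 2). Differences are of log2(signal + 2.29), hypomorph minus control, which understates the change of dim genes. Each SE is the moderated one of limma, which draws on the variance of other probe sets as well as on the probe set's own arrays. After centring, the 22519 probe sets in the brighter part of the table (mean at or above the median of all means) kept a median change of 0.18, and changes relative to that median are given beside the plain ones. The targeted gene was lower in the hypomorphs: Atg16l1 had scaled signals of 82.4 and 74.0 on the hypomorph arrays, against 221 and 252 on the control arrays, and differed by -1.57 ± 0.18 (SE) on the log2 scale (limma, adjusted p 0.0142). The call rested on both controls and on settings: the adjusted p was 0.0742 without control replicate 1, 0.0945 without control replicate 2, 0.114 uncentred and 0.0596 without the filter on dim probe sets. Without the variance trend no probe set on the array passed, at 2492 with an unadjusted p under 0.05. All 10 thymocyte genes measured as a check of the tissue (Cd3e, Cd3g, Cd4, Cd8a, Cd8b1, Rag1, Rag2, Ptcra, Themis and Dntt) were in the tested part, with summed scaled signals of 31468 and 34956 in the hypomorphs and 28647 and 34697 in the controls.

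Cathepsin E showed the family's widest separation, on 1 of its 2 probe sets. The probe set with the plain suffix _at, which Affymetrix gives to probes of 1 transcript, had scaled signals of 2449 and 1626 on the hypomorph arrays, against 104 and 131 on the control arrays. Both hypomorph arrays thus lay far above both control arrays, and the lower hypomorph signal was 12.4 times the higher control signal. The mean log2 signal was 10.96 ± 0.42 in the hypomorphs and 6.90 ± 0.23 in the controls (SD, n = 2 each). The log2 change was 4.07 ± 0.19 (SE), and 3.89 relative to the median of the tested probe sets. It lay between 3.77 and 4.36 with any 1 array left out. Within the groups, hypomorph replicate 1 was 1.51 times replicate 2, and control replicate 2 was 1.26 times replicate 1. The wide gap between groups beside these ratios is a description only, since Ctse was chosen as the largest rise.

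The other Ctse probe set gave a different picture. The probe set with the suffix _s_at, which Affymetrix gives to probes that may match several transcripts, had scaled signals of 1721 and 517 on the hypomorph arrays, against 1161 and 1373 on the control arrays. The hypomorph arrays lay on either side of both controls and differed from each other 3.33-fold, while the controls differed 1.18-fold. Its mean log2 signal was 9.89 ± 1.22 in the hypomorphs and 10.30 ± 0.17 in the controls (SD, n = 2 each). The log2 change was -0.42 ± 0.39 (moderated SE), and this SE is smaller than these SDs alone would give. The sign depended on which hypomorph array was used: the log2 change was -1.28 without hypomorph replicate 1 and 0.45 without hypomorph replicate 2. Which transcripts its probes bind was not tested here. The log2 changes of the 2 Ctse probe sets, 4.07 and -0.42, thus differed in size and sign.

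**Figure D1:**
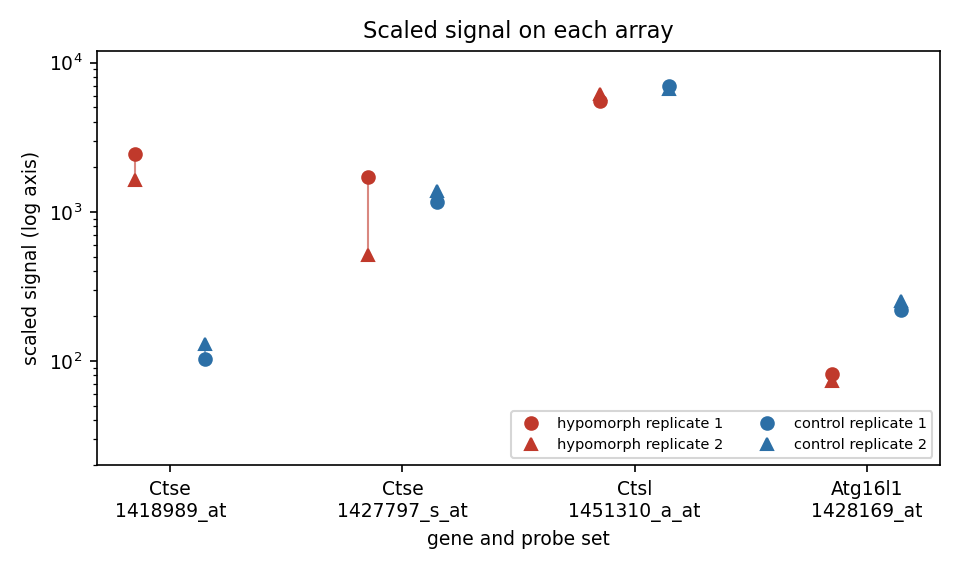
Scaled signals (log axis) on each hypomorph (red) and control (blue) array for both Ctse probe sets, the bright Ctsl probe set and Atg16l1; circles are replicate 1, triangles replicate 2, and lines join arrays of a group. On the Ctse _at probe set the hypomorphs, at 2449 and 1626, sit above the controls at 104 and 131, while on the _s_at probe set the controls sit between the hypomorph arrays at 1721 and 517.

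Genes whose profile over the 4 arrays was closest to that of Ctse were picked by the distance between log2 profiles after subtracting each probe set's own mean, among 18771 tested probe sets with 1 symbol. With 4 arrays such likeness is a description only. For the _s_at probe set of Ctse, the brighter by its mean, the nearest were Lztfl1 (distance 0.13), Afap1l2 (0.15) and Mtm1 (0.19). Each of these was lowest on hypomorph replicate 2: Mtm1, which encodes the phosphoinositide phosphatase myotubularin, had scaled signals of 284 and 89.7 in the hypomorphs and 228 and 257 in the controls. For the _at probe set, a choice added after the values were seen, the nearest were probe sets of Dapk1 (1.26 and 1.96) and Ramp1 (1.64). Dapk1, which encodes death-associated protein kinase 1, had 183 and 218 on the hypomorph arrays against 24.6 and 18.9 on the control arrays.

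Cathepsin D, the main aspartic protease of lysosomes, was nearly level. The Ctsd probe set had scaled signals of 933 and 933 on the hypomorph arrays, against 733 and 926 on the control arrays. Both hypomorph arrays lay above both controls, but the gap to control replicate 2 was small and the spread lay in the controls. Its log2 change was 0.18 ± 0.15 (SE), which is 0.00 relative to the median of the tested probe sets. It was 0.01 without control replicate 1 and -0.06 with quantile normalization. The aspartic protease with the same catalytic mechanism as cathepsin E had no separation like that seen on the _at probe set of Ctse.

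Cathepsin A is a carboxypeptidase that also protects neuraminidase 1 and beta-galactosidase in a lysosomal complex. The main Ctsa probe set had 466 and 557 in the hypomorphs, against 462 and 519 in the controls, and the groups overlapped, with a log2 change of 0.06 ± 0.15 (SE), and -0.19 with quantile normalization. The dimmer Ctsa probe set had 49.6 and 50.7 in the hypomorphs and 49.3 and 11.8 in the controls. Its log2 change of 0.94 ± 0.50 (SE) came from the low signal on control replicate 2, and was 0.0044 without that array. The partners of the complex were also measured. Neu1 had 136 and 138 in the hypomorphs and 105 and 111 in the controls, and Glb1 had 205 and 193 in the hypomorphs and 162 and 213 in the controls, neither past the threshold in limma (adjusted p 0.381 and 0.811).

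Among the cysteine proteases of lysosomes at large, the bright probe sets of Ctsb and Ctsc were slightly higher on the hypomorph arrays after centring, by about as much as the typical tested probe set. Cathepsin B, which acts as an endopeptidase and a dipeptidyl carboxypeptidase, had 5 probe sets. The brightest had scaled signals of 1020 and 1053 in the hypomorphs, against 865 and 922 in the controls. The groups did not overlap, and the log2 change was 0.21 ± 0.13 (SE), 0.03 relative to the median. The second had 647 and 627 in the hypomorphs and 490 and 586 in the controls, a log2 change of 0.25 ± 0.14 (SE). The 3 dim Ctsb probe sets had changes of 0.22, 0.42 and 0.05, and 4 of the 5 lay within 0.14 of the median of the tested probe sets. The dim ones moved with single arrays: with 1 array left out the change of 0.22 ran from 0.06 to 0.38, that of 0.42 from 0.13 to 0.71 and that of 0.05 from -0.24 to 0.34. With quantile normalization the brightest Ctsb probe set was at -0.04.

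Cathepsin C, the dipeptidyl peptidase that trims granule proteases, had 823 and 810 on the hypomorph arrays, against 687 and 731 on the control arrays on its bright probe set. The groups did not overlap, and the log2 change was 0.20 ± 0.13 (SE), 0.02 relative to the median, and -0.04 with quantile normalization. The other Ctsc probe sets were too dim to be tested, with scaled signals between 8.91 and 23.3 on all arrays. Cathepsin H, an aminopeptidase, was level on both probe sets: the brighter had 106 and 99.1 in the hypomorphs and 109 and 100 in the controls, and its log2 change was -0.04 ± 0.20 (SE), against -0.05 ± 0.23 (SE) on the dimmer.

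Cathepsin L had the highest signals of any member probe set, though signals of different probe sets do not rank transcripts. Its bright probe set had scaled signals of 5546 and 6118 on the hypomorph arrays, against 6940 and 6674 on the control arrays. Both hypomorph arrays lay below both controls. The mean log2 signal was 12.51 ± 0.10 in the hypomorphs and 12.73 ± 0.04 in the controls (SD, n = 2 each), a log2 change of -0.22 ± 0.16 (SE), and -0.41 relative to the median. The size depended on scaling: relative to the median it was -0.21 with quantile normalization. On uncentred values the plain change was 0.10, but the change relative to the median was -0.41, as in the main fit. The other Ctsl probe set was below the signal filter and went the other way, with 15.9 and 13.9 in the hypomorphs and 2.92 and 1.66 in the controls, values close to the pseudocount in the controls.

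Cathepsin S, the invariant chain protease of dendritic cells and B cells, had 924 and 906 in the hypomorphs, against 929 and 795 in the controls. The groups overlapped and the log2 change was 0.09 ± 0.14 (SE), and -0.15 with quantile normalization. Cathepsin W, known from cytotoxic T cells and NK cells, had 291 and 371 in the hypomorphs, against 406 and 388 in the controls. Both hypomorph arrays lay below both controls, with a log2 change of -0.27 ± 0.16 (SE) and -0.45 relative to the median, and it was -0.10 without hypomorph replicate 1. Quantile normalization gave a plain change of -0.51, and the plain change was positive, at 0.06, only where arrays were left uncentred. Relative to the median it was -0.45 uncentred and -0.52 with quantile normalization. Cathepsin Z, a carboxypeptidase also called cathepsin X, had 3 probe sets that did not move alike: on the brightest the groups overlapped, with 761 and 625 in the hypomorphs and 656 and 886 in the controls (log2 change -0.14 ± 0.17 SE, from -0.36 without control replicate 1 to 0.07 without control replicate 2), while the other 2 had changes of 0.14 and 0.28 with both hypomorph arrays above both controls.

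**Figure D2:**
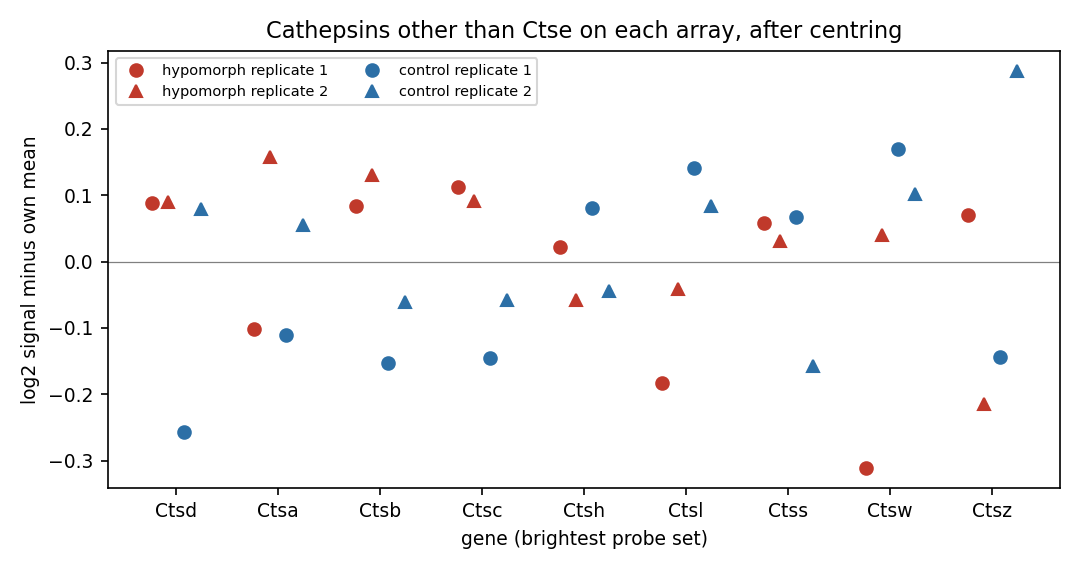
Log2 signal after centring, minus the probe set's own mean over the 4 arrays, for the brightest probe set of each of the 9 genes other than Ctse; hypomorph arrays are red and control arrays blue, circles replicate 1 and triangles replicate 2. Ctsl and Ctsw have both hypomorph arrays below both controls, Ctsd, Ctsb and Ctsc have them above, and the others overlap.

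Across the family, Ctse on its _at probe set stood apart from the other 9 genes in size. By the brightest probe set of each, which for Ctse is the _s_at one at -0.42, the 9 had log2 changes between -0.27 and 0.21, which are folds of 0.829 to 1.16, with a median of 0.06 beside 0.18 over all tested probe sets. Relative to the median of the tested probe sets they lay between -0.45 and 0.03, and between -0.52 and -0.05 with quantile normalization. The plain changes were small enough that several of them turned sign with the scaling. Of the 22 member probe sets, 19 were bright enough to be tested and 3 were not, and every gene kept at least 1. In 8 of the 19 both hypomorph arrays lay above both controls and in 2 below, where 43.8% and 7.04% of all tested probe sets did so. Since the family was chosen on this contrast, nothing is read from these counts.

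**Figure D3:**
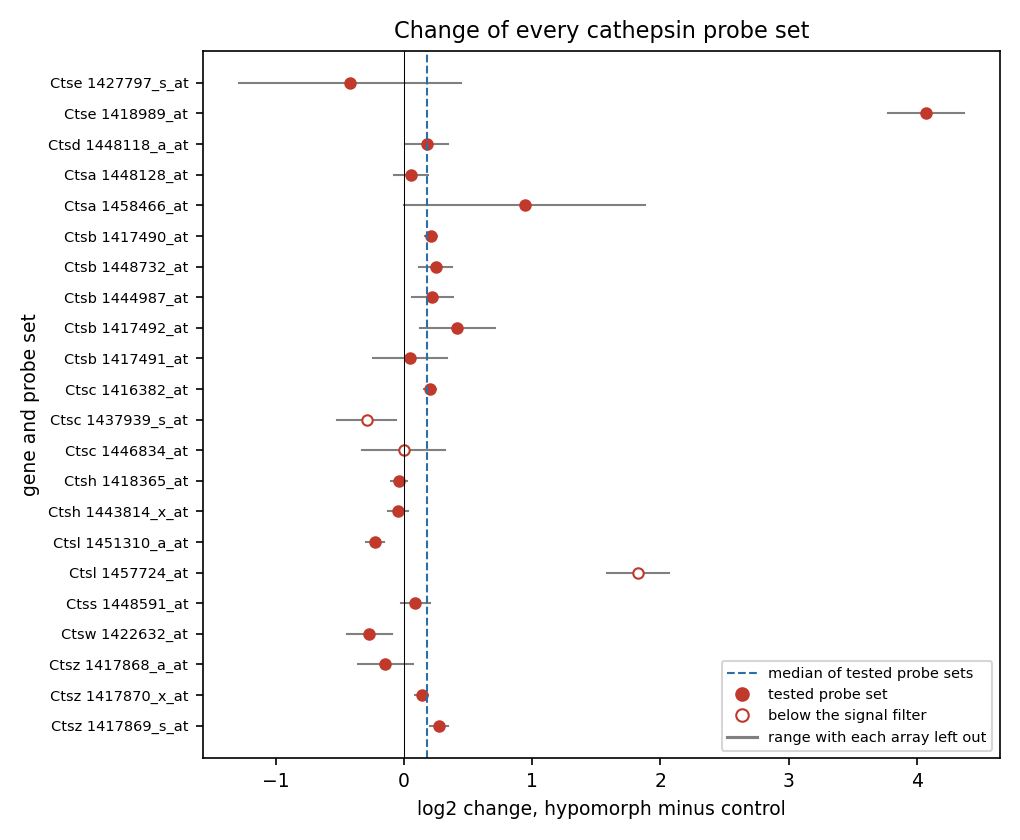
Log2 change, hypomorph minus control, of all 22 member probe sets (red points; open where the probe set was too dim to be tested), with grey lines for the range when each array in turn is left out and a dashed line at the median of the tested probe sets, 0.18. Of the 22, the _at probe set of Ctse, at 4.07, and the dim probe set of Ctsl, at 1.82, lie above 1, and the _s_at probe set of Ctse has a range from -1.28 to 0.45.

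**Figure D4:**
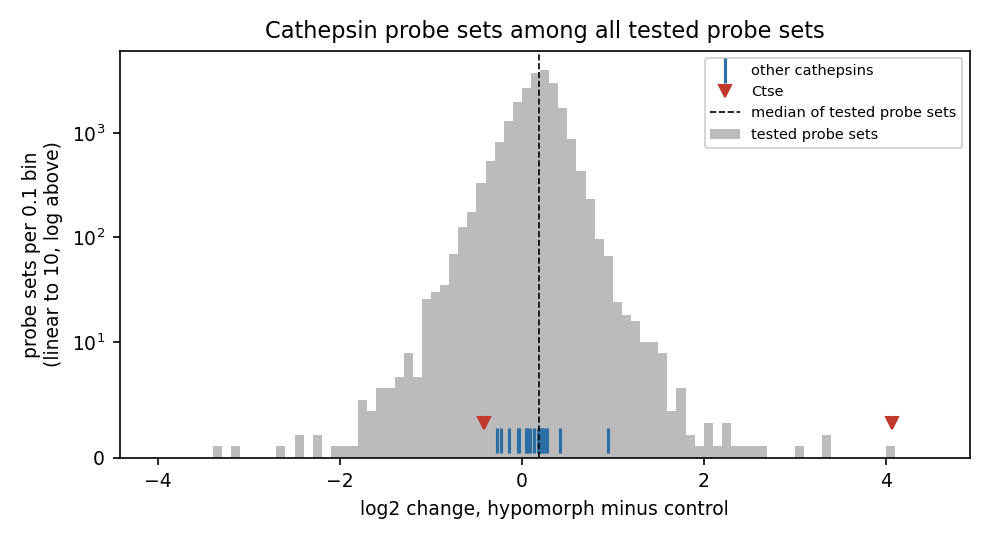
Number of tested probe sets in each 0.1 step of log2 change, hypomorph minus control (grey; vertical axis linear to 10 and logarithmic above), with the tested member probe sets marked (blue ticks, other cathepsins; red triangles, Ctse). The ticks of the other cathepsins lie between -0.27 and 0.42 within the bulk, except the dimmer Ctsa probe set at 0.94 in the upper tail, while Ctse has 1 probe set at -0.42 and 1 at 4.07.

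Cathepsins B, H, S and Z are abundant in macrophages and other antigen-presenting cells, and the arrays measured whole thymus cells, in which fewer cells of a type and less RNA per cell cannot be told apart. Of 9 tested macrophage genes, 8 lay below the median change, and none passed in limma. The summed scaled signals of the 10 on the array were 962 and 821 in the hypomorphs and 971 and 1141 in the controls. A large part of these sums was Lyz2, with 322 and 414 in the hypomorphs and 292 and 534 in the controls. The 5 tested B cell genes had a median log2 change of -0.48, with sums of 399 and 407 in the hypomorphs and 489 and 615 in the controls. None of the 5 passed in limma, and Pax5 went the other way, with a log2 change of 0.45. Cd79b made up a large part of the sums and overlapped, with 187 and 170 in the hypomorphs and 181 and 304 in the controls. The 7 dendritic cell genes measured summed to 227 and 244 in the hypomorphs and to 291 and 227 in the controls. Of the marker genes of these cells, Mertk, Zbtb46 and Xcr1 were too dim to be tested. The part of these cells in the cathepsin values was not tested.

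Beside Ctsw, 4 genes of the cytotoxic and NK marker list were measured (Nkg7, Klrd1, Ncr1 and Ccl5). They summed to 361 and 375 in the hypomorphs and 455 and 473 in the controls. All 3 tested genes of this list lay below the median change. Gzma, a granzyme gene among the cathepsin substrates and partners, was brighter, with 1370 and 1348 in the hypomorphs and 1219 and 1187 in the controls. Its log2 change was 0.17, while Gzmb and Prf1 of that list had changes of -0.44 and -0.17. Beside Ctse, the 5 erythroid genes summed to 112 and 78.6 in the hypomorphs and 97.0 and 75.7 in the controls, and 4 of them were too dim to be tested. Thymic epithelial genes summed to 251 and 197 in the hypomorphs and 201 and 216 in the controls, with Foxn1, Krt8, Psmb11 and Aire too dim to be tested, although cathepsin L is known from these cells. Granulocyte genes varied between animals rather than groups, at 2134 and 3573 in the hypomorphs and 623 and 5635 in the controls. Their parts in the values of Ctsw, Ctse and Ctsl were not tested.

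Genes that work with the cathepsins were tested in the same fit, and none of them passed. Of 51 listed genes, 46 had a probe set with their symbol alone, 28 were tested, and 0 passed in either direction in limma, beside 0.0622% of all tested probe sets. At an unadjusted p under 0.05 there was 1 higher and 1 lower of the 28, where 16.1% of all tested probe sets passed that limit, and 23 of the 28 lay below the median change of the tested probe sets.

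On the transport side, M6pr, the cation-dependent mannose 6-phosphate receptor, had the smallest p. Its scaled signals were 1023 and 1062 in the hypomorphs, against 668 and 812 in the controls, so the groups did not overlap. The log2 change was 0.50, with an unadjusted p of 0.0045 and an adjusted p of 0.229 in limma, and 0.32 relative to the median. It was 0.25 with quantile normalization (adjusted p 0.719 in limma). Where arrays were centred on tested probe sets it was 0.32 (adjusted p 0.656 in limma). Gnptab, a subunit of the enzyme that makes the mannose 6-phosphate tag, had 216 and 213 in the hypomorphs and 175 and 178 in the controls (adjusted p 0.394 in limma). Gnptg, its gamma subunit, had 85.4 and 39.1 in the hypomorphs and 63.5 and 91.6 in the controls, and Tfeb had 39.3 and 25.8 in the hypomorphs and 33.3 and 48.2 in the controls, so both overlapped. The 8 tested genes of this list had a median log2 change of 0.08.

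Of the substrates and partners, Cd74, the invariant chain that cathepsins S and L cleave, had 1061 and 1043 in the hypomorphs, against 1380 and 1258 in the controls. Its groups did not overlap, and its log2 change of -0.33 had an unadjusted p of 0.0289 and an adjusted p of 0.283 in limma. H2-Aa, an MHC class II chain, had 1129 and 1214 in the hypomorphs and 1415 and 1360 in the controls (adjusted p 0.352 in limma). Psap, the precursor of the saposins, which is sorted to lysosomes with the cathepsins, had 2291 and 2772 in the hypomorphs and 2089 and 2239 in the controls (adjusted p 0.449 in limma). Uncentred, the change was 0.0029 for Cd74 and 0.083 for H2-Aa. All 12 genes of this list were tested, with a median of -0.0016.

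Of the cathepsin inhibitors, 3 were bright enough to be tested and none passed. Cst3, which encodes cystatin C, had 1029 and 1135 in the hypomorphs and 963 and 1063 in the controls. Cstb, the cytosolic cystatin B, had 942 and 1194 in the hypomorphs and 922 and 993 in the controls. Cst7, cystatin F of leukocytes, had 49.5 and 43.0 in the hypomorphs and 57.2 and 57.4 in the controls, at a log2 change of -0.31. In limma the adjusted p was 0.731 for Cst3, 0.614 for Cstb and 0.544 for Cst7.

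Other proteases of the same classes were mostly dim. Of 12 further cathepsin genes, Ctso alone was bright enough to be tested, with 169 and 223 in the hypomorphs and 179 and 175 in the controls (adjusted p 0.729 in limma). The other 11, among them Ctsf, Ctsk and Ctsg and the placental group, were not tested. Of the aspartic proteases, Bace1 had 62.3 and 70.7 in the hypomorphs and 50.6 and 50.0 in the controls, with a log2 change of 0.37. Psen2, a catalytic subunit of gamma-secretase, had 73.8 and 87.1 in the hypomorphs and 94.0 and 102 in the controls, with a log2 change of -0.29. Pga5 and Napsa had changes of -0.18 and 0.08, and the adjusted p-values of these 4 in limma were 0.453 to 0.896.

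**Figure D5:**
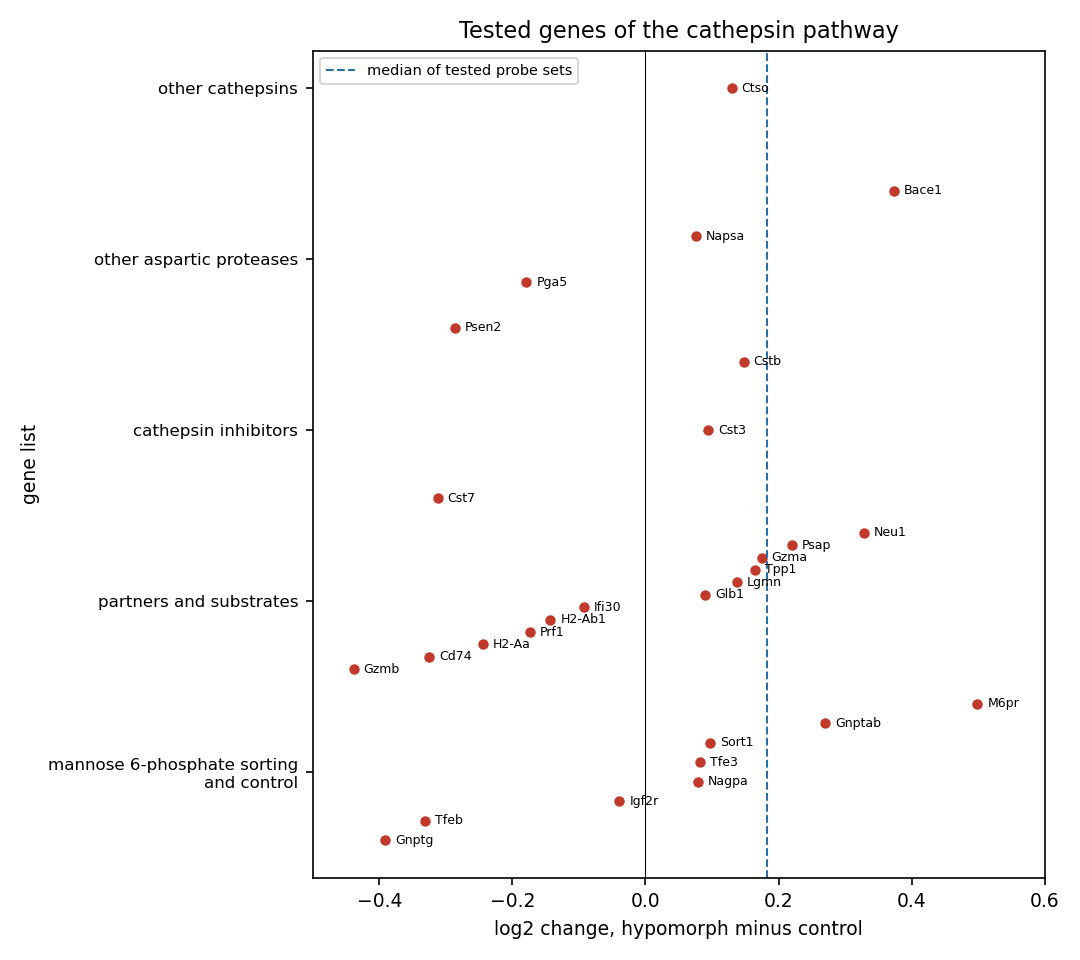
Log2 change, hypomorph minus control, of each of the 28 tested genes of the 5 cathepsin pathway lists, by its brightest probe set (red points, labelled; height within a list only spreads the points), with a dashed line at the median of the tested probe sets, 0.18. M6pr is farthest to the right at 0.50 and Gzmb farthest to the left at -0.44, and none passed the adjusted threshold in limma.

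In the gene order of the RefSeq table, Ctse lies on the chromosome of Atg16l1, 172 places away among the genes measured. Its 10 measured neighbours on either side, a window chosen after the values of Ctse were known, included 11 tested genes. In 8 of them both hypomorph arrays lay above both controls, where 43.8% of all tested probe sets did, and in 0 below. None of the 11 passed in limma. Slc41a1, a magnesium transporter gene, had the highest log2 change at 1.09 (unadjusted p 5.7e-04, adjusted p 0.159 in limma), and Rab7b, the nearest tested gene on one side of Ctse, had the lowest at -0.23. Slc41a1 passed in limma on uncentred values (adjusted p 0.0387). It did not pass with quantile normalization (adjusted p 0.652) or where arrays were centred on tested probe sets (adjusted p 0.554). Its log2 change was 0.79 without hypomorph replicate 1 and 1.38 without hypomorph replicate 2.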

How the data were processed

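Total RNA from thymocytes was labelled with biotin and hybridised to 1 Affymetrix array per animal, per the labels. The authors deposited 1 linear intensity per probe set and array, computed by GCOS per the submitters' processing notes; the sources used here give no version, scaling target or detection call. Of 45101 probe sets, 64 Affymetrix controls were left out, 932 carried several symbols and 9160 none in the platform annotation. As array medians spanned 0.66 on the log2 scale, above a limit of 0.3, arrays were centred on the common median after adding a pseudocount of 2.29, the 10th percentile. Probe sets with a mean at or above the median of means were fitted with limma 3.58.1 in R 4.3.3 (lmFit, eBayes with a variance trend, two-sided, no covariates), with Benjamini-Hochberg adjustment over all 22519 and a threshold of 0.05. The SEs given are the moderated ones of this fit. The code was tested on simulated data. With 2 arrays a group, exact permutation gives no p below 0.333. A gene outside the family is given by its brightest probe set. Named genes are all members, the called or up to 4 lowest-p genes of each pathway list, and the 3 probe sets nearest to Ctse. Glb1, Gzma, Gzmb, Prf1, marker genes and 2 neighbours of Ctse were named beyond this rule. Members and lists were chosen with earlier results of these data known. Alternatives covered scaling, pseudocount, filter, variance trend, replicate block and each array left out.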

Additional observations from a re-analysis of the deposited data

How the results depend on the processing

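The log2 change of Ctse on its _at probe set stayed between 3.77 and 4.40 over 13 alternatives. The number of probe sets called, 14, was 4 after quantile normalization, 7 where arrays were centred on tested probe sets, 84 on uncentred values, 4 without the filter, 0 without the variance trend (2492 at an unadjusted p under 0.05) and 9 with the replicate number as a block. It was 9 to 421 with 1 array left out. It was 421 without hypomorph replicate 1, 54 without hypomorph replicate 2 and 9 without control replicate 1; such fits hold 1 array in a group, assumed to vary like the other group. Replicate numbers gave no sign of pairing (correlation of differences between replicates 0.08 over 22519 probe sets). No pathway gene was called under any of the 13. Of 286 member values, 45 moved by more than the spread between replicates, and 15 of the 22 member probe sets turned sign under at least 1 alternative. With quantile normalization 7 did, among them the bright probe sets of Ctsa (-0.189), Ctss (-0.153), Ctsd (-0.0645), Ctsb (-0.0413) and Ctsc (-0.0413). Uncentred 7 did, among them those of Ctsh (0.293), Ctsz (0.184), Ctsl (0.104) and Ctsw (0.0572). Among named genes outside the family, none of them called, the log2 change turned sign under quantile normalization for Ctso (-0.0617), Napsa (-0.0199), Cstb (-0.0853) and Cst3 (-0.141), and where arrays were centred on tested probe sets for Ctso (-0.0445), Napsa (-0.0982), Cstb (-0.0262) and Cst3 (-0.0799). On uncentred values it did for Psen2 (0.0422), Pga5 (0.149), Cst7 (0.0160), Cd74 (0.00295), H2-Aa (0.0834) and Rab7b (0.0946). With 1 array left out it ran from -0.0901 to 0.241 for Napsa, -0.0737 to 0.332 for Ctso, -0.0231 to 0.318 for Cstb, -0.927 to 0.144 for Gnptg, -0.509 to 0.0412 for Rab7b and -0.576 to 0.218 for Pga5. Leaving arrays uncentred, or centring them on tested probe sets, shifts the log2 change of every probe set by the same amount. The cause of the other moves was not tested. With 2 arrays per group and no detection calls, dim probe sets have no known background.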
